A study of Mus musculus with 8 samples.

Results

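Gpnmb, the genes of the MITF/TFE transcription factors, a set of lysosomal genes and Pgcp were followed in Lats2-/- mouse embryonic fibroblasts (MEFs) against Lats2+/+ MEFs. The set holds 46 genes of the 27745 gene names on the array, and a gene belongs to it when its name in the scanner files is on the list. The list was chosen with this comparison in view, Gpnmb and Pgcp for their ratios and the others as lysosomal genes. All values of the members are therefore a description, and no p-value is given for Gpnmb or Pgcp.

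The arrays were made to compare the transcriptomes of Lats2-deficient and wild-type MEFs. Lats2 encodes a kinase of the Hippo pathway. Each of 3 litters (112, 116 and 121) gave 1 Lats2-/- and 1 Lats2+/+ RNA extract, and the labels name 1 clone for each extract. All 6 extracts carry the strain name C57BL/6J, came from untreated cells in DMEM with fetal bovine serum, and have no age in the labels. The Lats2 allele and the exons it lacks are not given in the sources used here. Both extracts of a litter were hybridised together on 2-colour arrays with the dyes swapped, on 2 arrays each for litters 112 and 116 and on 4 arrays for litter 121. Litters 112 and 116 lay on 1 slide and litter 121 on the other, so that litter 121 and its slide cannot be told apart. Every ratio below is Lats2-/- over Lats2+/+ on the log2 scale, averaged within a litter, and the replicate is the litter (n = 3).

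Lysosomes are acidic organelles in which cathepsins, glycosidases and lipases break down proteins, glycans and lipids. A proton pump, the V-ATPase, keeps them acidic, and membrane proteins such as Lamp1 and Lamp2 line them. The factors Mitf, Tfeb and Tfe3, for which the array uses the names Mitf, Tcfeb and Tcfe3, bind E-box elements before many lysosomal genes and are held in the cytoplasm by mTORC1. Gpnmb encodes a membrane glycoprotein of melanosomes, phagosomes and lysosomes and is a known MITF target in osteoclasts and melanocytes.

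The E-box CACGTG was sought in the promoters of the members, because MITF/TFE factors bind it. RefSeq promoters of build GRCm38.p6, each running from 250 bases before to 50 bases after a start site, were at hand for 38 of the 46 members, with 46 promoters in all. Those of Asah1, Atp6v0d2, Atp6v1h, Ctsb, Ctsh, Galns, Npc1 and Pgcp were not among them. CACGTG lay in 13 of the 46 promoters (28.3%), against 7.15% of all 32851 promoters. The longer palindrome TCACGTGA, which contains CACGTG, lay in 6 of the 46 (13.0%), against 0.974% of all. The variant CATGTG, searched on both strands, lay in 8 of the 46 (17.4%), against 14.2% of all. A match is a description of these letters and not a binding site. Shown are stretches from 7 members that hold the E-box, with every CACGTG in capitals, on the strand of the gene. The ratios of Mcoln1, Atp6v0d1, Lgmn and Lamp1 were above 0 in every litter, and those of Ctsa, Ctsd and Gla were not. In litter 121 the sign of Lamp1 turned with the dye. The 7 are examples: of all 13 members with CACGTG, 5 were higher in all 3 litters.
Mcoln1, chr8:3500447-3500506, plus strand, E-box at -45 from the start: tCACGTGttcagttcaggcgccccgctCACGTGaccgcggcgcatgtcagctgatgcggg
Atp6v0d1, chr8:105566035-105566094, minus strand, at -3: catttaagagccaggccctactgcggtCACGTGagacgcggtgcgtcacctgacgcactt
Lgmn, chr12:102439109-102439168, minus strand, at -49: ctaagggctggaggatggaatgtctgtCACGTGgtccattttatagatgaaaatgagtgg
Lamp1, chr8:13159089-13159148, plus strand, at -45: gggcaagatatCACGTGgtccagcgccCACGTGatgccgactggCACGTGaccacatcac
Ctsa, chr2:164833734-164833793, plus strand, at -12: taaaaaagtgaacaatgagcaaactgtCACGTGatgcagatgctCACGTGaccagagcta
Ctsd, chr7:142387893-142387952, minus strand, at -98: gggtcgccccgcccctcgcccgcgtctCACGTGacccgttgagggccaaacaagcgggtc
Gla, chrX:134601167-134601226, minus strand, at -194: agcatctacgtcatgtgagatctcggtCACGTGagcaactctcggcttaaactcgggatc

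The Gpnmb promoter held neither CACGTG nor CATGTG in its 300 bases. Its 250 bases before the start site, chr6:49036268-49036517 on the plus strand, are shown in lower case throughout because neither motif was found there.
Gpnmb: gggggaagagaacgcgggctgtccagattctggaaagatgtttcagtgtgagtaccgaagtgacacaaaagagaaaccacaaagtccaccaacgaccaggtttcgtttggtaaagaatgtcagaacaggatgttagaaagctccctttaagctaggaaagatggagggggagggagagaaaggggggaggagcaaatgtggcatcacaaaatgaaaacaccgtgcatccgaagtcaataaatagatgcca

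The arrays were alike in brightness, with medians of 60.9 to 68.2 intensity units in green and 83.1 to 94.2 in red, and 52.9% to 61.3% of probes were well above background in a channel. A probe was kept when it was well above background in enough extracts of either genotype, which left 22642 probes for 14791 genes. The Lats2 probe that lies farthest upstream was lower in Lats2-/- in every litter (-1.33, -1.05 and -0.56 in litters 112, 116 and 121). The other 3 Lats2 probes lay between -0.70 and -0.18 in litters 112 and 116 but between 0.80 and 1.17 in the extract labelled Lats2-/- of litter 121, so the main counts, the member median and the means of Gpnmb and Pgcp are also given without that litter. The cells had the marker genes of fibroblasts: 10 of 10 were well above background in every extract, except Pdgfra in the Lats2-/- extract of litter 121. Their ratios differed strongly between litters, with list medians of 0.14, 1.95 and -1.54 in litters 112, 116 and 121 (Col3a1 0.13, 3.70 and -3.42; Thy1 -0.38, 2.05 and -3.66), and summed marker signals of 17.93 to 19.21 in Lats2-/- and 18.51 to 19.26 in Lats2+/+ on the log2 scale. The part of these differences in the members' ratios was not tested. In bulk RNA, fewer cells of a type and less RNA per cell cannot be told apart.

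Of the 46 members, 42 had a kept probe and are described in ratios. The other 4 were Atp6v0d2, Ctsc, Ctsk and Ctss. Among the 42, the mean ratio was above 0 for 33 and below 0 for 9, where 53% of all genes had a mean above 0. The median member ratio was 0.18, beside 0.01 over all 14791 genes. The litters contributed unequally. In litter 112, 35 of the 42 members were higher in Lats2-/- (52.3% of all genes) and the median was 0.35. In litter 116, 28 were higher (50.7% of all genes) with a median of 0.18. In litter 121, 21 were higher (50.9% of all genes) with a median of 0.03. The median over the mean ratios was 0.09 without litter 112, 0.25 without litter 116 and 0.31 without litter 121.

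In all 3 litters 14 members were higher in Lats2-/-, where 15.9% of all genes were. These were the proteases Pgcp, Lgmn, Tpp1 and Ctsf, the membrane proteins Mcoln1, Scarb2 and Lamp1, the glycan-degrading enzymes Neu1 and Hexa, the lipid-handling proteins Asah1, Npc1, Psap and Smpd1, and the V-ATPase subunit Atp6v0d1. Over 2 litters, 14 were higher without litter 112 (26.9% of all genes), 20 without litter 116 (28.2%) and 25 without litter 121 (28.7%). Lower in all 3 litters were 3 members, Gpnmb, Gusb and Atp6v1h, where 14.1% of all genes were. Some places rest on values near 0. Atp6v1h was at -0.0017 in litter 121, and further kept probes gave 0.0014 for Atp6v1h in litter 112 and -0.0024 for Psap in litter 116. For Lamp1 in litter 121 the sign turned with the dye (0.31 and 0.35 with Lats2-/- in Cy5, -0.17 and -0.26 in Cy3). Dye-swapped arrays also differed in sign for Smpd1 in litter 112 (-0.15 and 0.19). The same held in litter 116 for Psap (-0.17 and 0.23) and Hexa (0.13 and -0.02). With 1 litter left out, 7 were lower without litter 112 (25.4% of all genes), 6 without litter 116 (25%) and 4 without litter 121 (25.7%). At least a 2-fold difference in any litter was seen in 8 of the 42 (15.8% of all genes): Gpnmb, Mcoln1, Pgcp, Ctsa, Ctsb, Ctsh, Lgmn and Npc2. Without Gpnmb and Pgcp, chosen for their ratios, these were 6 of 40.

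In limma's moderated fit over all probes, 0 of 22642 probes passed an adjusted p of 0.05 (0%), and 1549 had an unadjusted p below 0.05 (6.84%). Among the 40 kept members other than Gpnmb and Pgcp, 5 lay at that unadjusted level, beside 7.59% of all genes: Lgmn, Tpp1, Neu1, Asah1 and Atp6v0d1. All 5 were higher in Lats2-/-, where 4.14% of all genes had that level and that direction, and their adjusted p was 0.711 each. None of the 40 lay at that level and was lower (3.45% of all genes). The count was 3 without litter 112, 8 without litter 116 and 6 without litter 121, where 1145, 1253 and 1458 probes of the whole array lay at that level. It was 1 when the litter pairing was left out (554 probes) and 11 when the 8 arrays, which repeat 3 litter pairs, were fitted with litter as a random block (2999 probes). Since the members were chosen on this comparison, nothing is read from these counts.

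**Figure D1:**
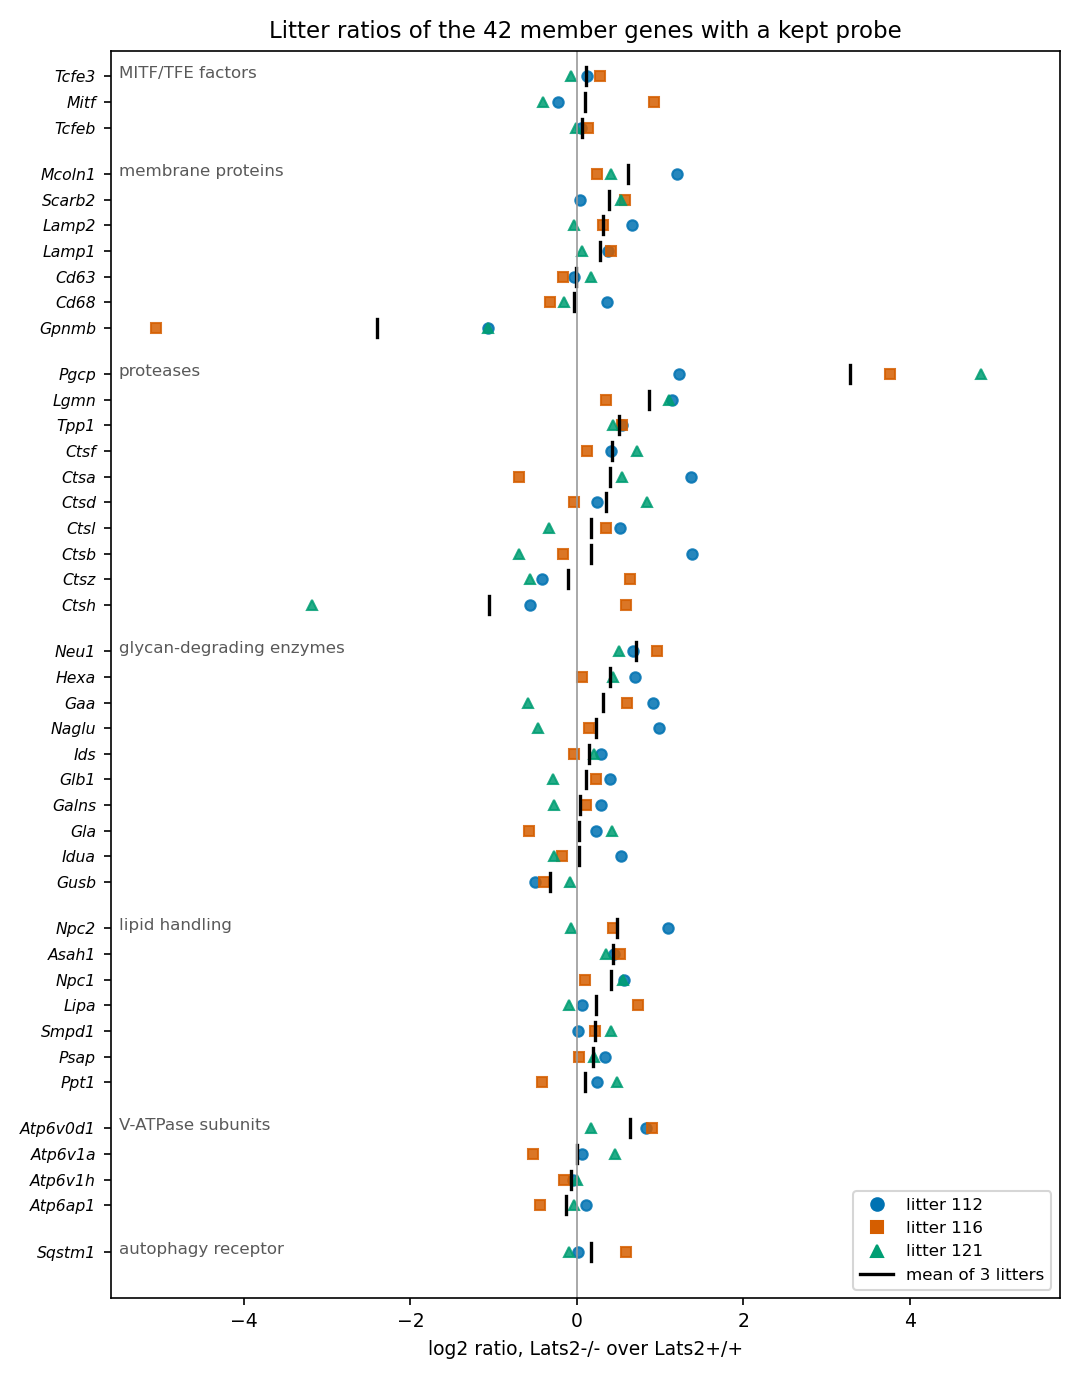
Log2 ratio of Lats2-/- over Lats2+/+ (x axis) for each of the 42 members with a kept probe (rows, grouped by role). Coloured points are litters and black ticks are means of 3 litters. Gpnmb lies at -5.05 in litter 116 and at -1.07 in both other litters, Pgcp reaches 4.86 in litter 121, and most other members lie between -1 and 1.

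The genes of the 3 MITF/TFE factors all had ratios above 0 in litter 116 and below 0 in litter 121, and none had the same sign in all 3 litters. For Tcfeb the ratio in litter 121 was -0.0055, with arrays from -0.12 to 0.08, so it had no clear direction there. Mitf, the melanocyte and osteoclast factor, had ratios of -0.23, 0.93 and -0.41 in litters 112, 116 and 121 (mean 0.10 ± 0.73, SD). Its signals were 6.76, 7.91 and 6.67 in Lats2-/- and 6.996, 6.98 and 7.08 in Lats2+/+ on the log2 scale, so that only the Lats2-/- extract of litter 116 stood above the others. Tcfeb, the factor best known for driving lysosomal genes, had ratios of 0.05, 0.14 and -0.01. Tcfe3 had ratios of 0.13, 0.28 and -0.07, and a further kept probe gave -0.02, 0.10 and -0.09. No ratio of Tcfeb or Tcfe3 exceeded 0.28 in size.

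Gpnmb was lower in Lats2-/- in every litter and on 8 of 8 arrays. Its log2 signals were 12.07, 7.78 and 11.25 in Lats2-/- and 13.14, 12.83 and 12.31 in Lats2+/+ for litters 112, 116 and 121. The genotypes did not overlap, since the highest Lats2-/- extract lay below the lowest Lats2+/+ extract. Only 2 of the 42 members, Gpnmb and Lgmn, were separated in this way, where 6.25% of all genes were. The Lats2-/- extract of litter 116 stood far below the other 5 extracts. Its ratio of -5.05 is a 33.2-fold lower signal, while litters 112 and 121 both gave -1.07, a 2.10-fold lower signal. The mean was -2.40 ± 2.30 (SD, n = 3 litters), with -1.07 without litter 116 and -3.06 without litter 121. Dye-swapped arrays of the same extracts differed by 0.11 to 0.19 on the log2 scale, less than litter 116 differed from the other litters and more than litters 112 and 121 differed from each other. The probe, A_51_P438967, lies at chr6:48985973-48986032 of build mm8. A further Gpnmb probe, A_52_P417819 at chr6:48986699-48986758, was not well above background on any array and gives no ratio.

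**Figure D2:**
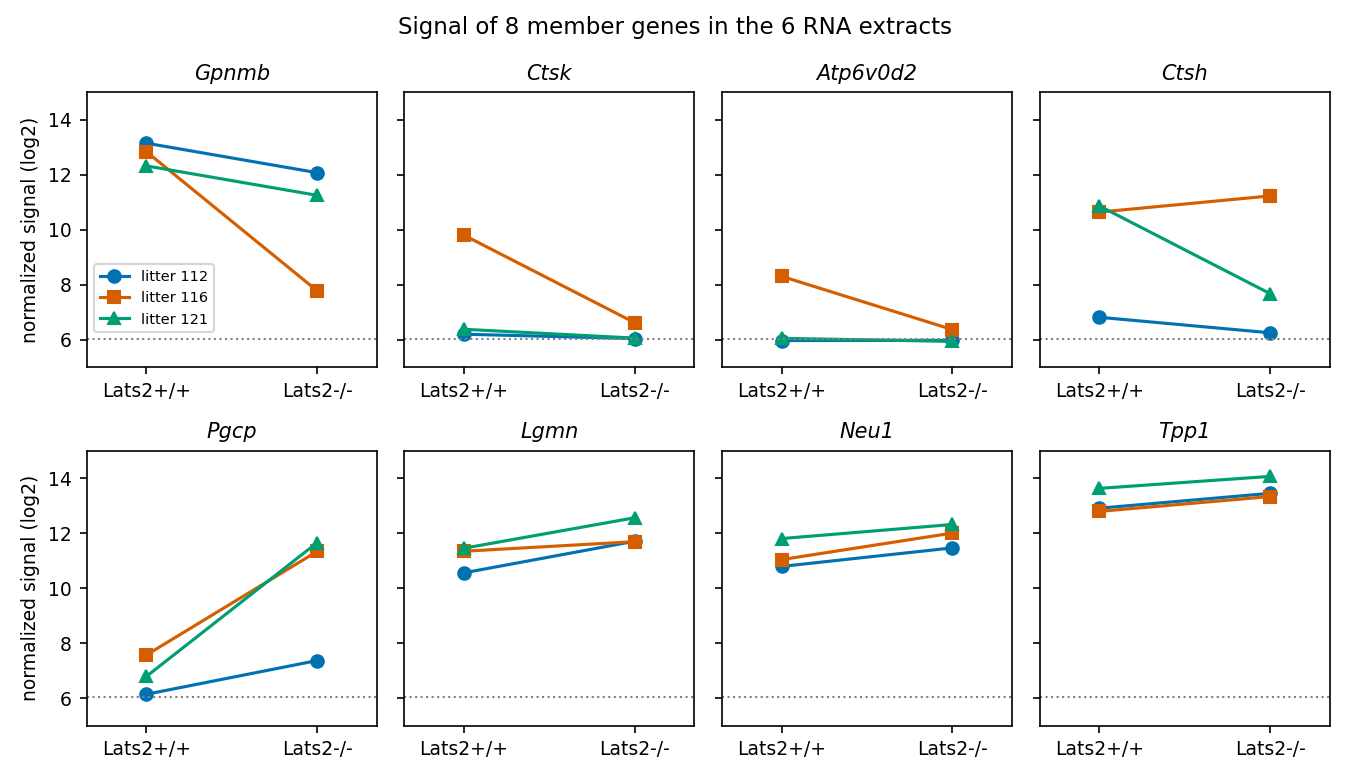
Normalized log2 signal (y axis) of 8 members in Lats2+/+ and Lats2-/- extracts, joined by litter. The dotted line is the mean over arrays of the lowest signal well above background (6.03). Gpnmb, Ctsk and Atp6v0d2 are far lower in the Lats2-/- extract of litter 116, and the lines of Pgcp, Lgmn, Neu1 and Tpp1 run upwards in all 3 litters.

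Ctsk and Atp6v0d2 were measured almost only in litter 116. Ctsk encodes cathepsin K, the collagen-degrading protease of osteoclasts. Its log2 signals in Lats2+/+ were 6.20, 9.79 and 6.38 in litters 112, 116 and 121, and in Lats2-/- 6.04, 6.62 and 6.06. The Lats2+/+ extract of litter 116 thus stood alone, with a ratio of -3.18 there. In litter 121 Ctsk was above background on 2 of 4 arrays in Lats2+/+ and on none in Lats2-/-, at least 1.25-fold lower, and in litter 112 it was not well above background. Atp6v0d2, a V-ATPase subunit of osteoclasts, was above background only in the Lats2+/+ extract of litter 116 (8.30 against 6.37 in Lats2-/-, at least 3.82-fold lower). Ctsc, the dipeptidyl peptidase cathepsin C, was above background only in the Lats2-/- extract of litter 121 (7.35 against 6.00, at least 2.45-fold higher). Ctss, cathepsin S of antigen-presenting cells, was not well above background on any array.

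Markers of macrophages and osteoclasts were read beside these genes, since such cells express Gpnmb, Ctsk and Atp6v0d2. Of 14 markers, 4 or 5 were above background in each extract: Cd14, Lyzs, C1qb and Oscar in all 6, and Csf1r in 2. The other 9 markers, Ptprc, Emr1, Itgam, Tyrobp, Aif1, Fcgr1, C1qa, Acp5 and Calcr, were not above background in any extract. Cd14, a lipopolysaccharide receptor, had ratios of -0.60, -1.64 and -0.74, in the same direction as Gpnmb. Lyzs, the lysozyme of macrophages, had ratios of 0.05, 0.95 and 3.40, in the opposite direction. The summed marker signal on the log2 scale was 10.44, 10.83 and 12.14 in Lats2-/- for litters 112, 116 and 121. In Lats2+/+ it was 10.57, 11.50 and 10.53. The sum was thus lower in Lats2-/- in litter 116 and higher in litter 121. It mostly followed Cd14 in litter 116 and Lyzs in litter 121, and not the markers as a set. The ratios of Csf1r, C1qb and Oscar were 0.30, 0.01 and -0.11 in litter 116 and -0.08, -0.03 and -0.06 in litter 121. Of 9 melanocyte markers, 0 to 5 were above background in an extract, and their summed signal stayed between 9.33 and 9.54. No single marker exceeded 6.96, near the lowest signals well above background (6.03 on average), so the sum could show little. Tyrp1 was above background only in the Lats2-/- extract of litter 121 (6.96 against 5.95, at least 1.92-fold higher). The part of such cells in the Gpnmb ratio was not tested beyond these levels.

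Of the other 6 membrane proteins, Mcoln1, Lamp1 and Scarb2 were higher in all 3 litters. Mcoln1, a calcium channel of the lysosomal membrane whose promoter holds TCACGTGA, had ratios of 1.21, 0.24 and 0.41 (mean 0.62 ± 0.51). Its log2 signals were 12.77, 12.32 and 13.05 in Lats2-/- and 11.56, 12.07 and 12.64 in Lats2+/+, so the genotypes overlapped between litters while each litter pair ran the same way. Lamp1 gave 0.38, 0.40 and 0.06, and Scarb2, a lysosomal membrane receptor, gave 0.04, 0.58 and 0.54. Lamp2 gave 0.67, 0.31 and -0.03, and a further probe gave -0.03, 1.04 and 0.26, with the signs of litters 112 and 121 turned. Cd63 and Cd68 had means of -0.01 and -0.04. With Gpnmb included, the 7 membrane proteins had a median of 0.28.

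Pgcp, which encodes a secreted carboxypeptidase also called Cpq, had the highest ratios of the members in litters 116 and 121, and in litter 112 its ratio is a lower bound and has no rank. Its log2 signals were 7.37, 11.33 and 11.65 in Lats2-/- and 6.14, 7.57 and 6.79 in Lats2+/+ for litters 112, 116 and 121. The Lats2-/- extract of litter 112 lay below the Lats2+/+ extract of litter 116, so the genotypes overlapped although each pair ran upwards. The ratios were 1.22, 3.76 and 4.86, positive on 8 of 8 arrays (mean 3.28 ± 1.86). In litter 112 the Lats2+/+ extract was not well above background, which makes that difference at least 2.20-fold and lets the mean depend on the background. The mean was 4.31 without litter 112, 2.49 without litter 121 and 5.09 in the processed signals. In litters 116 and 121 it was 13.6-fold and 29.0-fold. The probe, A_51_P506045, lies at chr15:33538901-33538960 of build mm8. A further Pgcp probe was not well above background on any array.

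Among the other proteases, Lgmn, Tpp1 and the cathepsin gene Ctsf were higher in every litter, and the other 6 kept cathepsin genes differed in sign between litters. Lgmn, an asparaginyl endopeptidase that processes cathepsins, had log2 signals of 11.70, 11.69 and 12.56 in Lats2-/- and 10.56, 11.34 and 11.45 in Lats2+/+. All Lats2-/- extracts lay above all Lats2+/+ extracts, with ratios of 1.15, 0.35 and 1.11 (mean 0.87 ± 0.45). Tpp1, a tripeptidyl peptidase, had ratios of 0.54, 0.54 and 0.44 (mean 0.51 ± 0.06).

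Ctsb, the cysteine protease cathepsin B, had ratios of 1.39, -0.17 and -0.69 and thus differed in sign between litters. Ctsa, the serine carboxypeptidase that protects Neu1 and the beta-galactosidase Glb1, had ratios of 1.37, -0.70 and 0.54. A further Ctsa probe gave 1.03, -0.91 and -0.06, with the sign of litter 121 turned. Ctsh, cathepsin H, an aminopeptidase, had log2 signals of 6.25, 11.22 and 7.67 in Lats2-/- and 6.81, 10.64 and 10.86 in Lats2+/+. It was low in both extracts of litter 112, where Lats2-/- was not well above background and at least 1.48-fold lower. Its ratio was 0.59 in litter 116, and in litter 121 it was 9.10-fold lower in Lats2-/-. The litters in which Ctsh was lower did not include the litter in which Gpnmb was lowest. Ctsd, Ctsl, Ctsf and Ctsz had means of 0.35, 0.18, 0.42 and -0.11, and the 10 kept proteases had a median of 0.38.

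**Figure D3:**
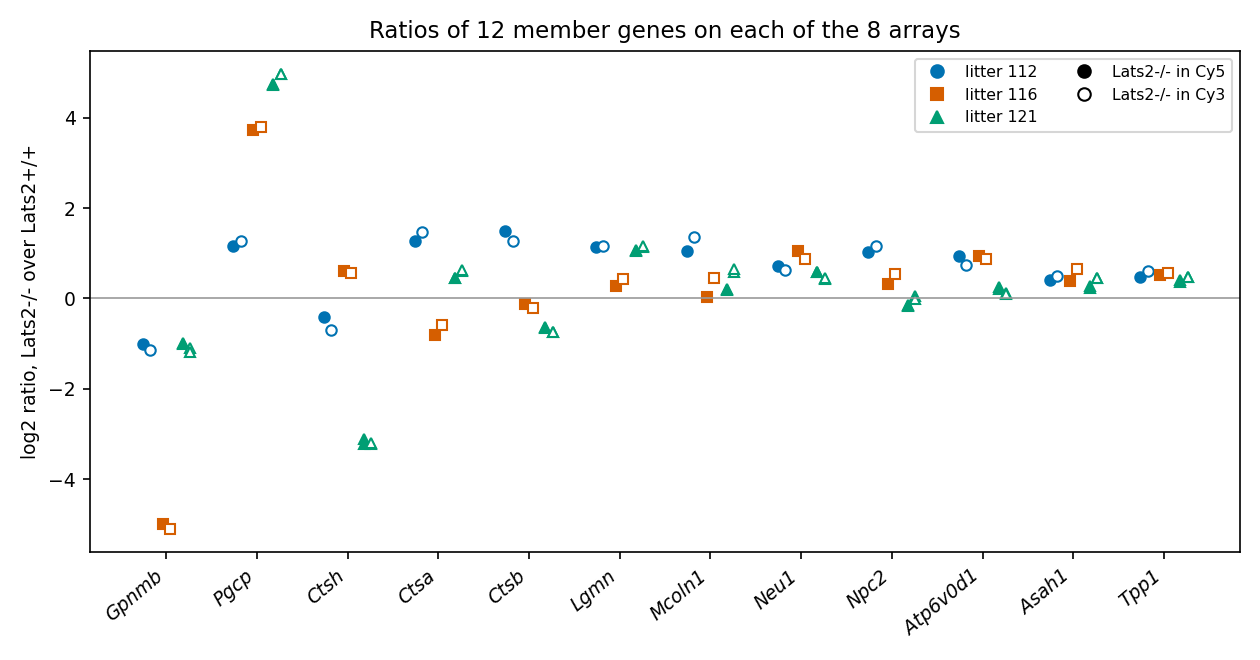
Log2 ratio of Lats2-/- over Lats2+/+ (y axis) for 12 members on each of the 8 arrays. Colour and shape mark the litter, and filled and open points mark the dye that labelled Lats2-/-. Filled and open points of a litter mostly lie close together, while litters differ, as for Gpnmb in litter 116 and Ctsh in litter 121.

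The glycan-degrading enzymes split by litter. Neu1, a sialidase, had log2 signals of 11.46, 11.999 and 12.31 in Lats2-/- and 10.79, 11.04 and 11.80 in Lats2+/+. Each pair ran upwards, with ratios of 0.67, 0.96 and 0.51 (mean 0.72 ± 0.23), and the genotypes overlapped between litters. Gusb, beta-glucuronidase, ran the other way with ratios of -0.50, -0.40 and -0.08 (mean -0.33 ± 0.22), and a further probe gave -1.80, -0.27 and -0.0031. Over the 10 enzymes, litter 112 had 9 higher, litter 116 had 6 and litter 121 had 4, and the medians were 0.46, 0.09 and -0.18. Gaa, the glycogen-degrading acid glucosidase, followed that order with 0.92, 0.60 and -0.58. Naglu, which degrades heparan sulfate, did so too with 0.99, 0.15 and -0.47.

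The 7 lipid-handling members all had means above 0, from 0.10 to 0.49. Npc2, which binds cholesterol inside lysosomes, had ratios of 1.10, 0.43 and -0.07 (mean 0.49 ± 0.59). Asah1, acid ceramidase, had log2 signals of 11.40, 11.85 and 12.20 in Lats2-/- and 10.95, 11.33 and 11.85 in Lats2+/+. Its pairs ran upwards by similar amounts, 0.45, 0.52 and 0.35 (mean 0.44 ± 0.08). Npc1, the membrane partner of Npc2, gave 0.57, 0.10 and 0.55. Ppt1, which removes palmitate from proteins, gave 0.25, -0.42 and 0.48 by its brightest probe, the lowest mean of the group (0.10). That rank depends on the probe: further Ppt1 probes gave 1.08, -0.0038 and 0.81 (mean 0.63, above all others of the group) and -0.03, 0.17 and 0.40.

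Of the 4 kept V-ATPase members, 3 had a mean below 0, and the median was -0.04. The highest mean was that of Atp6v0d1. This subunit of the membrane sector had ratios of 0.83, 0.90 and 0.17 (mean 0.64 ± 0.40). Its log2 signals were 12.97, 12.53 and 12.78 in Lats2-/- and 12.13, 11.63 and 12.61 in Lats2+/+, overlapping through the bright Lats2+/+ extract of litter 121. Atp6v1h and the accessory protein gene Atp6ap1 had means of -0.07 and -0.13, and Atp6v1a had ratios of 0.06, -0.52 and 0.46. Sqstm1, the autophagy receptor p62, had ratios of 0.01, 0.60 and -0.09 (mean 0.17 ± 0.37).

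Further genes of the same pathways were read from lists of lysosomal, V-ATPase, sorting and autophagy genes that leave out the members. Of 27 other lysosomal genes with a kept probe, 23 had a mean above 0, and 10 were higher and 0 lower in all 3 litters. Their median was 0.35, and 0.38, 0.32 and 0.10 in litters 112, 116 and 121. The shares over all genes were 53% with a mean above 0, 15.9% higher and 14.1% lower in all 3 litters. An unadjusted limma p below 0.05 was found for 9 of them, all higher (4.14% of all genes), among them Acp2, Cd164, Laptm4a, Clcn7, Ostm1 and Sumf1. Ostm1, which forms a chloride transporter with Clcn7, had the largest of these means, 0.78 ± 0.29.

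Of 13 other V-ATPase subunits, 12 had a mean above 0 (53% of all genes) and 8 were higher in all 3 litters (15.9% of all genes), with a median of 0.32. Atp6v0a1, Atp6v0c, Atp6v0e and Atp6v1d had an unadjusted p below 0.05 and were higher (4.14% of all genes). The 3 litters gave medians of 0.32, 0.35 and 0.32. Of 15 autophagy genes, 12 had a mean above 0, with a median of 0.25, and 4 were at that level and higher (4.14% of all genes): Map1lc3b, Gabarap, Atg12 and Optn. Optn, an autophagy receptor, had ratios of 0.58, 0.48 and 0.48.

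Of 9 enzyme-sorting genes 5 had a mean above 0 (53% of all genes), with a median of 0.09. In all 3 litters 3 were higher (15.9% of all genes) and 1 lower (14.1%). Gnptg, a subunit of the enzyme that makes the mannose-6-phosphate tag, had an unadjusted limma p below 0.05 and was higher (4.14% of all genes). Of 9 kept genes of mTORC1 and Rag control of the MITF/TFE factors 5 had a mean above 0 (53% of all genes), with a median of 0.09. Of these 9, 3 were higher (15.9% of all genes) and 2 lower (14.1%) in all 3 litters. Flcn (0.35, 0.50 and 0.32) was at that level and higher (4.14% of all genes). The 3 cystatins all had a mean above 0 (53% of all genes), with a median of 0.26. In all 3 litters 2 of them were higher (15.9% of all genes), and none was at that level. No gene of any list passed an adjusted p of 0.05. The adjusted p was 0.711 for each gene named here at the unadjusted level.

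**Figure D4:**
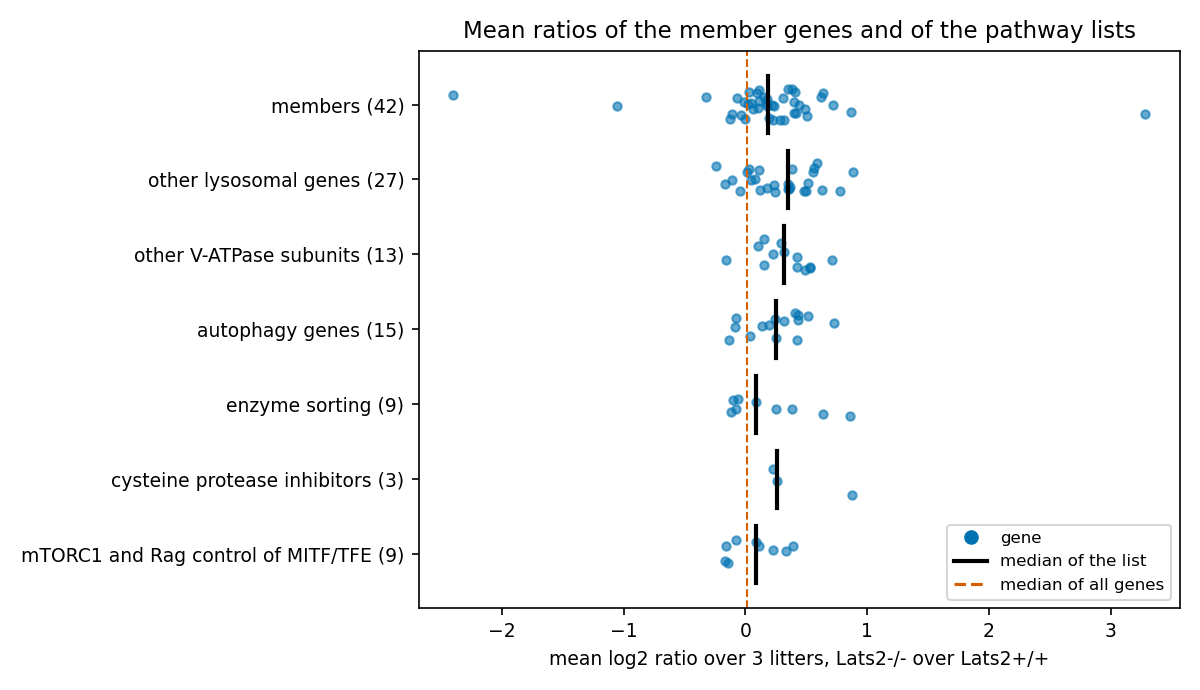
Mean log2 ratio over 3 litters (x axis) of every kept gene in the member set and in 6 pathway lists, with the number of genes in parentheses. Black ticks are list medians, and the dashed line is the median of all genes (0.01). Gpnmb and Pgcp are the outermost points, and the other lysosomal genes and V-ATPase subunits have medians of 0.35 and 0.32.

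The ratios were set beside the E-box. Of the 14791 genes with a kept probe, 10045 were matched to a promoter, with a median ratio of 0.02, and 16.4% of them were higher in all 3 litters. The 13 members with CACGTG had a median of 0.31 and the 22 kept members whose promoters lack it 0.13, with 38.5% and 27.3% higher in all 3 litters. The 6 members with TCACGTGA had a median of 0.38, but of -0.28 in litter 116, and 2 of them (33.3%), Mcoln1 and Atp6v0d1, were higher in all 3 litters, beside 31.0% of the 29 without it. The 7 kept members with CATGTG had a median of 0.40 and 57.1% were higher in all 3 litters, beside 0.17 and 25.0% for the 28 without it. Outside the members, 1013 genes with CATGTG had a median of 0.02, and 17.1% were higher in all 3 litters. Outside the members, 214 genes with TCACGTGA had a median of 0.06, and 22.4% were higher in all 3 litters. The 1159 genes outside the members with CACGTG had a median of 0.01, and 16.7% were higher in all 3 litters.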

How the data were processed

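Total RNA of MEFs was hybridised by the authors to 2-colour Agilent arrays of design 14868, whose headers give probe positions in mouse build mm8. Spot extraction used Agilent's Feature Extraction, for which the file headers give 10.7.3.1 and the submitters' processing notes 10.5.1.1 as the version. The deposited scanner files hold the intensity of 45018 spots and of their local background in both channels, without normalization. They also hold processed signals, which the authors' software had corrected for background and dye bias, with their log10 ratio of red over green. The deposited value table holds log10 ratios too, which matched the scanner ratios turned to Lats2-/- over Lats2+/+ within 0.005 on all 8 arrays (column medians of 0). Scale, centring and direction of that table were thus known.

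Intensities were corrected with normexp (offset 50), 860 outlier spots and all control spots were left out, and log2 ratios were normalized by loess within each array (limma 3.58.1, R 4.3.3). No spot was saturated. Ratios were turned to Lats2-/- over Lats2+/+, repeat spots averaged and arrays averaged within a litter. The design gives the pairing, since both extracts of a litter share an array. A probe was kept when it was well above background on most arrays for 2 or more of the 3 extracts of a genotype, whichever genotype it was. The 3 litter ratios were tested against 0 with lmFit and eBayes, two-sided, with Benjamini-Hochberg adjustment over 22642 probes. Litters are separate animals, so p-values measure the spread between litters, and their number limits the precision. Signals per extract were read after Aquantile normalization. A gene was read from its brightest kept probe, and further kept probes of named members were given where they differed in sign or by over 1 on the log2 scale. Where 1 extract was not well above background, the fold difference is given as a lower bound. For it the dim signal was raised to the lowest signal well above background, if it lay below that. Where it lay above, as for Atp6v0d2 in litter 116, the bound equals the measured difference. The fit was tested on simulated data.

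Named with values were Gpnmb, Pgcp, the MITF/TFE genes, members with a 2-fold difference in any litter or an unadjusted p below 0.05, the members with the highest and lowest mean of each role, and members without a kept probe. Values of other members were added after they had been seen. Some genes of the pathway lists are counted but not reported by name here. The members, lists and tests were chosen with earlier results of these data known. Alternatives were another offset, processed signals, the value table, other filters, quantile normalization, the methods' t-test, no litter pairing, single dye orientations, slide or litter as a random block, the mean over probes and leaving out each litter. Promoters come from RefSeq (GRCm38.p6) and were matched by symbol, synonym or accession with Python and pandas. Exon and UTR annotation of the probes in mm8 was not used here.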

Additional observations from a re-analysis of the deposited data

How the results depend on the processing

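The counts of members here are over all 42 with a kept probe, Gpnmb and Pgcp included. Both were chosen for their ratios, so nothing is read from counts at an unadjusted p below 0.05. Among the other 40 members the limma fits gave 12 with slide as a random block, 11 with litter as a random block and 1 without the pairing. The whole array of 22642 probes then had 4029, 2999 and 554. The median member ratio stayed above 0 under all alternatives run (0.09 to 0.31 without a litter, 0.14 with slide as a random block, 0.16 after quantile normalization, otherwise 0.18 to 0.20). Gpnmb stayed negative, from -3.06 to -1.07 without a litter (-1.07 without litter 116) and from -2.64 to -2.07 otherwise. Pgcp stayed positive, from 2.49 to 4.31 without a litter and from 3.21 to 5.09 otherwise, with 5.09 in the processed signals and the value table, and the strict filter on dim probes dropped it. Of 254 values of the other named members under 16 alternatives, 243 kept their sign and 2, both of Asah1, moved by more than 1 SD of the litters (0.35 with Lats2-/- in Cy5 and 0.53 in Cy3). Counts moved more. Without the litter pairing, a fit with no replicate block gave 554 probes and 2 members at an unadjusted p below 0.05. With slide as a random block over 8 arrays (correlation 0.40), 717 probes passed the adjusted threshold, and 4029 probes and 13 members had an unadjusted p below 0.05. With litter as a random block (correlation 0.87), these were 341, 2999 and 13. Both fits count dye swaps and repeats of 3 litter pairs as arrays of their own, joined only by the estimated correlation. The unfiltered table gave 2623 probes at that level. Arrays with Lats2-/- in Cy3 gave 11 members (1802 probes), those with it in Cy5 8 (1812 probes) and the methods' t-test 3 (1347 probes). Without a litter, 0 probes passed the adjusted threshold, 1145 to 1458 probes and 4 to 9 members had an unadjusted p below 0.05, 4 to 7 members were lower in both remaining litters and 14 to 25 higher. The cause of these shifts was not tested. Probes not well above background, all but 52.9% to 61.3% of a channel, give only a bound on a ratio.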
